A study of Mus musculus with 12 samples.

Results

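The transcripts described here are those of the Dickkopf family of secreted Wnt regulators and of the proteins known to bind them: the ligand genes Dkk1, Dkk2, Dkk3, Dkk4 and Dkkl1, the Kremen receptors Kremen1 and Kremen2, the Wnt co-receptors Lrp5 and Lrp6, and Ckap4, a second DKK receptor. The members were taken by gene symbol from the table of raw counts per gene, which held 10 of 10 among its 57186 genes, each in a single row. Of these, 9 had at least 1 count in the 12 libraries, and 5 passed the filter on low counts and could be tested.

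RNA was sequenced from 3 DDKC tumor cell lines, isolated from pancreatic tumors of mice that carry a ubiquitous homozygous Dkk3 knockout together with Ptf1a Cre/+, a Cre driver of the pancreatic epithelial lineage. The lines are lettered A to C by their label numbers, and each was grown untreated or with recombinant soluble DKK3 (rDKK3), in 2 libraries per line and condition. All groups thus lack Dkk3, every control is an untreated Dkk3-null line, and no Dkk3-competent line was part of the comparison. Each line is a single culture model from a tumor, and the labels give neither the dose nor the duration of rDKK3 nor say whether such a library pair stems from separate cultures.

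DKK1, DKK2 and DKK4 bind LRP5 and LRP6, the co-receptors that Frizzled receptors need to pass a Wnt signal to beta-catenin, and thereby hold back canonical Wnt signaling. Kremen proteins can form a complex with DKK1 and LRP6 that is taken up from the cell surface. DKK3 is the divergent member and is not a classical LRP5/6 antagonist, DKKL1 is a related protein best known from testis, and CKAP4 is a membrane protein that binds DKK1, and has been described as a receptor for DKK3, upstream of PI3K and AKT. In pancreatic cancer, DKK1 and CKAP4 are known from tumor cells and DKK3 largely from the stroma.

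The exon that the knockout replaces carries the start codon and the signal sequence, and the sequence is shown because secreted DKK3 cannot be made without it. In the reference annotation Dkk3 has 8 exons, and the coding part of exon 2 spans 213 bases at chr7:111757390-111757602 (GRCm39, minus strand). It is given 5′ to 3′ on the coding strand, with the start codon in capitals.
Dkk3 exon 2, coding part: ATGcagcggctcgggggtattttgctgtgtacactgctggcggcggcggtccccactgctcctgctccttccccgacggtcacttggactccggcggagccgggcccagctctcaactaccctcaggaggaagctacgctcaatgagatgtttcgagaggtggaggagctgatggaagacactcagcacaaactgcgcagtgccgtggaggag

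Dkk1 and Dkk2 were the ligand transcripts with more than a few counts, and both were highest in untreated line C. The 250 bases upstream of each gene's start are shown for that reason, from chr19:30527066-30527315 (GRCm39, minus strand) for Dkk1 and chr3:131790803-131791052 (plus strand) for Dkk2. Both strands were searched for CTTTGA and CTTTGT, the core that TCF/LEF factors recognize, for TGANTCA (AP-1), TTCNNNGAA (STAT) and TATAAA (the TATA box), and matches are in capitals.
Dkk1 upstream: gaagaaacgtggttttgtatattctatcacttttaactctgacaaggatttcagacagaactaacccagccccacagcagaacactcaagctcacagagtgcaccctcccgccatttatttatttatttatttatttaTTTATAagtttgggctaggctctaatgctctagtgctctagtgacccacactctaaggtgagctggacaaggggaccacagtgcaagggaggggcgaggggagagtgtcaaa
Dkk2 upstream: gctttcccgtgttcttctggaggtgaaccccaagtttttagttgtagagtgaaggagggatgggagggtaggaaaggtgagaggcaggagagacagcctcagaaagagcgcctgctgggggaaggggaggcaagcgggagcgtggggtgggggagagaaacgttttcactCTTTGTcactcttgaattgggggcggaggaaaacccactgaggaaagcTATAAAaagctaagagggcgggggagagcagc

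The Dkk2 window held CTTTGT, with its first base at -80 from the gene start, and TATAAA, with its first base at -32. In the Dkk1 window, TATAAA was found on the opposite strand, at -112, and no other motif was present. Among the same windows of 21639 protein-coding genes, 15.6% held CTTTGT, 13.8% CTTTGA, 6.09% TGANTCA, 7.23% TTCNNNGAA and 11.6% TATAAA. These are matches of letters, none of the searched letters overlapped another match, and the Dkk1 and Dkk2 windows thus shared TATAAA alone, on different strands.

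Dkk3 itself (ENSMUSG00000030772.7, chr7:111715224-111758264) was essentially absent. It had 0 counts in 11 libraries and 1 count in a treated library of line A, against 130150979 counts in all 12 libraries, where 3 counts would correspond to 0.0231 CPM (library-scaled counts). The row counts the exons of the whole gene, including the 6 exons downstream of exon 2, so these values do not depend on exon 2 alone. The paper describes an intracellular product of the same gene, Dkk3b, which starts in intron 2. In Dkk3-null acinar cultures it reports unchanged Dkk3b and overall Dkk3 RNA similar to wild type. The near absence of the whole row in these tumor lines thus differs from those cultures, and its cause was not tested. Genes around it were transcribed: Usp47, 4.36 kb away, ranged from 153 to 214 CPM (here scaled to library totals only), Mical2 between 78.5 and 121 CPM and Parva between 171 and 309 CPM, whereas Galnt18 had 2 counts in all. Addition of the recombinant protein was thus not accompanied by measurable endogenous Dkk3 RNA.

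Total counts ranged from 7520741 to 24541083 in untreated libraries (median 14250180) and from 3822987 to 11567095 in treated ones (median 6579895.5), so that rare transcripts were sampled less deeply after rDKK3. The libraries of each pair agreed within sampling noise after a common shift between low and high library numbers had been fitted. They were therefore summed and counted as 1 sample, leaving 3 lines untreated and the same 3 lines treated. All levels from here on are CPM after TMM normalization. A floor of 3 counts, taken as the least that can be told from 0, lay between 0.0856 and 0.292 CPM in the summed samples. Floors and count-based intervals cover counting error only. In the summed fit, p-values for rDKK3 are set against the spread of the response among these 3 lines. Those for differences between lines are set against what line and treatment leave over, with 1 untreated and 1 treated sample per line.

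Dkk1 (ENSMUSG00000024868.9, chr19:30523263-30527065), the best known LRP5/6 antagonist, was detected mainly in line C and held a single read there after rDKK3. In untreated line C the 2 libraries held 25 and 45 counts, or 2.00 CPM for the summed sample, and in treated line C they held 0 and 1 count. At the untreated level, 24.3 counts would have been expected at the depth of the treated sample. The ratio of untreated to treated was 24.3, with a 95% interval from the counts of 4.22 to 974 (exact conditional binomial). Line B held 2 and 3 counts untreated and 0 in both treated libraries, where 3.98 counts would have been expected, and line A held 0 counts throughout. The interval thus excluded equal levels in line C, no difference was detectable in line B at this depth, and line A held no reads to compare.

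Because it rests on line C, Dkk1 did not pass the filter of the fit over the 3 lines. Without that filter its log2 fold change was -4.56, with an adjusted p of 0.151 (edgeR, quasi-likelihood, Benjamini-Hochberg). In a fit that takes the 12 libraries as separate samples it was -4.31 with an adjusted p of 0.00275 in edgeR, but 18.1% of all genes were called in that fit, which counts repeat libraries as replicates. Between untreated lines, Dkk1 was at least 19.97-fold higher in line C than in line A, taken at its floor of 3 counts, and 9.30-fold higher than in line B (95% interval from the counts 3.80 to 29.5). The difference between the 3 lines had an adjusted p of 0.00209 in the edgeR fit without the filter, in which 22.7% of genes were called. Nearly all Dkk1 reads came from untreated line C, so that this difference between lines is given as a description.

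Dkk2 (ENSMUSG00000028031.7, chr3:131791053-131886065), which can hold back or weakly stimulate Wnt signaling depending on context, showed the widest range of all tested members. Line A held 0.934 CPM untreated and 0.390 CPM with rDKK3, from 28 and 4 counts. In line B the levels were 0.430 and 0.270 CPM, from 10 and 5 counts. Line C held 5.71 CPM untreated and 2.55 CPM with rDKK3, from 200 and 31 counts. Each line was lower with rDKK3 than without it, but treated line C remained above untreated lines A and B, so that the groups overlapped widely.

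Over the 3 lines the mean Dkk2 level was 2.36 ± 2.91 CPM untreated and 1.07 ± 1.28 CPM with rDKK3 (SD, n = 3 lines). With the line as a block, its log2 fold change was -1.06 ± 0.33 (SE; 95% interval -1.90 to -0.23), with an unadjusted p of 0.0215 and an adjusted p of 0.597 (edgeR), and it did not pass the threshold of 0.05. In that test 1 of 15214 genes passed (Lcn2), that is 0.00657%, while 1262 (8.29%) had an unadjusted p under 0.05. In the 12-library fit the log2 fold change was -1.06, with an adjusted p of 0.0180 (edgeR). Within single lines, the 95% interval of the counts excluded 0 in line C, at -1.16 (-1.76 to -0.61), and included it in the others, at -1.26 for line A (-3.23 to 0.26) and -0.67 for line B (-2.57 to 1.01). The lower and the higher library series gave -1.08 and -1.21 in line C. They gave -0.80 and -1.63 for line A. For line B they gave 0.02 and -0.68, so that the lower series of line B did not share the direction.

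**Figure D1:**
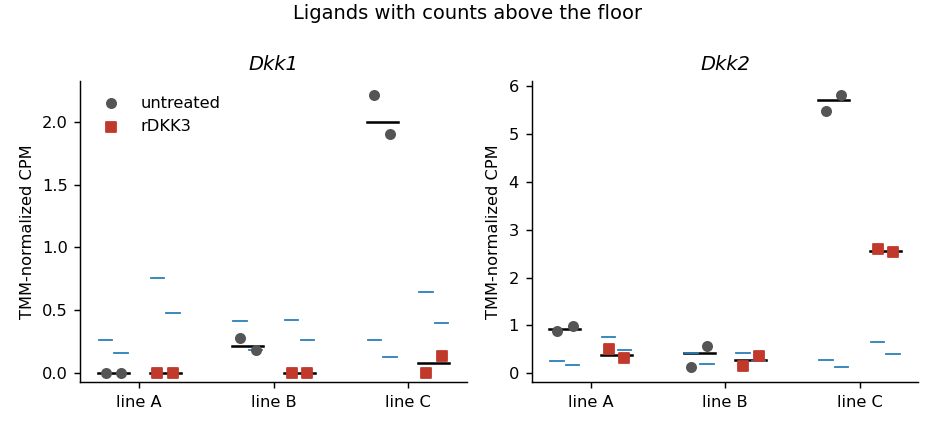
TMM-normalized CPM of Dkk1 and Dkk2 in each library (gray circles, untreated; red squares, rDKK3; lower library number on the left), with black bars for the summed sample and blue ticks for the floor of 3 counts of that library. Dkk1 exceeds its floor clearly only in the untreated libraries of line C (1.90 and 2.21 CPM), and Dkk2 is highest in line C and lower there with rDKK3 (2.55 against 5.71 CPM).

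The remaining ligands had few counts or none. Dkk4 (ENSMUSG00000031535.8, chr8:23114059-23117563), an LRP5/6 antagonist and Wnt target, had 0 counts in every library. Dkkl1 (ENSMUSG00000030792.9, chr7:44856943-44861571) had 7 counts in all, of which 4 were in untreated line C and 1 in treated line C, and no difference between conditions could be detected at this depth. In summed untreated line C it lay at 0.114 CPM, just above the floor of 0.0856 CPM. Of the ligand family, then, only Dkk1 and Dkk2 exceeded the floor of their library in at least 2 libraries, and both did so most in line C.

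Among the Kremen receptors, Kremen1 (ENSMUSG00000020393.17, chr11:5141552-5211558) was expressed in all samples and Kremen2 (ENSMUSG00000040680.10, chr17:23960171-23964807) had 3 counts, all in 1 untreated library of line A. Kremen1 stood at 37.1 CPM in untreated and 39.9 CPM in treated line A. The values were 36.1 and 39.1 CPM in line B. In line C they were 49.7 and 40.4 CPM. Untreated line C therefore stood above the other 5 samples, which all lay between 36.1 and 40.4 CPM, and line C was the line in which Kremen1 was lower with rDKK3.

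The Kremen1 mean was 41.0 ± 7.61 CPM untreated and 39.8 ± 0.673 CPM with rDKK3 (SD, n = 3 lines). Its log2 fold change over the lines was -0.03 (95% interval -0.38 to 0.33) with an adjusted p of 0.962 in edgeR. Leaving out line C turned the direction, to 0.11. In line C alone the log2 ratio was -0.30 (95% interval from the counts -0.45 to -0.15), against 0.10 (-0.06 to 0.27) in line A and 0.12 (-0.03 to 0.26) in line B.

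Lrp5 (ENSMUSG00000024913.17, chr19:3634828-3736564), one of the LRP co-receptors that DKK1 blocks, had the highest CPM of all members in every sample but treated line C. Line A held 368 CPM untreated and 359 CPM with rDKK3. Line B held 437 and 382 CPM. Line C held 238 and 183 CPM. Each treated sample was below its untreated partner. Line C was below lines A and B in both conditions, by more than the conditions differed in any line.

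For Lrp5 the mean was 347 ± 101 CPM untreated and 308 ± 109 CPM with rDKK3 (SD, n = 3 lines). The log2 fold change was -0.20 ± 0.12 (SE; 95% interval -0.52 to 0.11), with an adjusted p of 0.677 (edgeR), so that it did not pass, and without line C it was -0.12. In the 12-library fit it was -0.21 with an adjusted p of 0.0265 (edgeR). Lrp5 and Dkk2 were the 2 of 5 tested members called in that fit among those that also passed the filter of the summed fit, and both were lower, where 18.1% of all genes were called. By line, the log2 ratio was -0.04 (95% interval from the counts -0.09 to 0.02) in line A, -0.19 (-0.24 to -0.15) in line B and -0.38 (-0.45 to -0.31) in line C.

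Lrp6 (ENSMUSG00000030201.16, chr6:134423439-134543928), the closely related co-receptor that is phosphorylated on Wnt binding, did not share the pattern of Lrp5. It stood at 155 CPM untreated and 168 CPM treated in line A. In line B both conditions were at 185 CPM. Line C held 185 CPM untreated and 215 CPM with rDKK3. Treated samples were thus higher in lines A and C and level in line B, and the groups overlapped.

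The mean Lrp6 level was 175 ± 17.4 CPM untreated and 189 ± 23.9 CPM with rDKK3 (SD, n = 3 lines). Its log2 fold change was 0.11 (95% interval -0.17 to 0.39), with an adjusted p of 0.786 in edgeR, and it was 0.054 without line C and 0.18 without line B. In single lines the log2 ratio was 0.12 (95% interval from the counts 0.04 to 0.20) in line A, -0.0023 (-0.07 to 0.06) in line B and 0.22 (0.15 to 0.28) in line C.

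**Figure D2:**
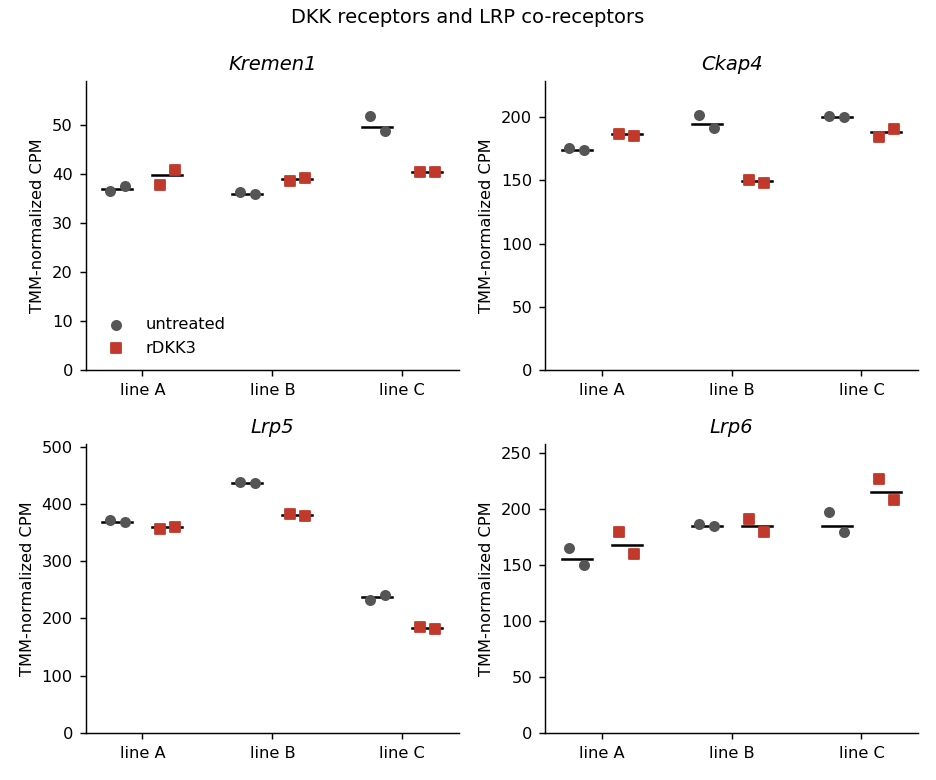
TMM-normalized CPM of Kremen1, Ckap4, Lrp5 and Lrp6 in each library (gray circles, untreated; red squares, rDKK3; lower library number on the left), with black bars for the summed sample and axes that start at 0. Line C is lowest for Lrp5 (238 and 183 CPM), and Ckap4 differs most between conditions in line B (194 and 149 CPM).

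The balance of Lrp5 to Lrp6 can be read within a sample, where the scaling between libraries cancels. There were 2.37 Lrp5 counts per Lrp6 count in untreated and 2.14 in treated line A. The ratio was 2.36 and 2.06 in line B. In line C it was 1.28 untreated and 0.848 with rDKK3, the one sample in which Lrp6 outnumbered Lrp5 in counts. The ratio was lower with rDKK3 in all 3 lines and in both library series of each line.

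The change in the log2 ratio was -0.15 in line A (95% interval from the counts -0.25 to -0.06), -0.19 in line B (-0.27 to -0.11) and -0.60 in line C (-0.69 to -0.50). Its mean was -0.31 ± 0.25 (SD, n = 3 lines), with p = 0.25 in a two-sided exact sign-flip test over the lines, which is the smallest p that 3 lines allow. Leaving out line C brought the mean to -0.17. Per kilobase of transcript, with the lengths of the canonical transcripts (5169 bases for Lrp5 and 9704 for Lrp6), the Lrp5 to Lrp6 ratio was 4.46 in untreated line A and 1.59 in treated line C.

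**Figure D3:**
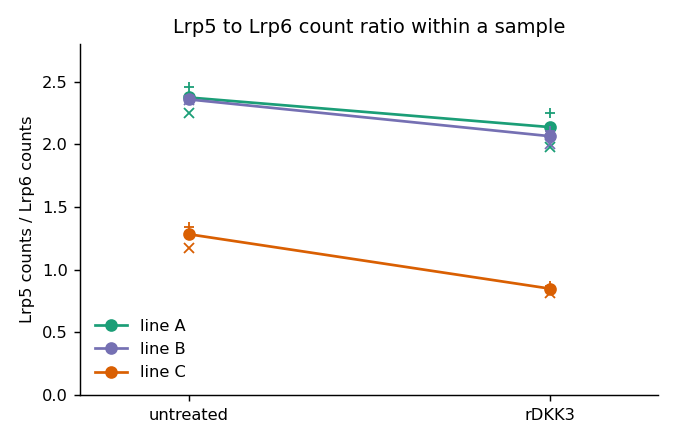
Ratio of Lrp5 to Lrp6 counts in untreated and rDKK3-treated samples; circles joined by lines are summed samples, and crosses and plus signs are single libraries of the low and the high number series. The line goes down from left to right in each cell line, most in line C, from 1.28 to 0.848.

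Ckap4 (ENSMUSG00000046841.7, chr10:84362169-84369926), which encodes the receptor outside the Wnt pathway, was abundant in every sample. Line A held 174 CPM untreated and 186 CPM with rDKK3. Line B held 194 and 149 CPM. Line C held 200 CPM (199.8) and 188 CPM. Treated line B was the lowest sample, and line A lay on the other side of no change from lines B and C.

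The mean Ckap4 level was 189 ± 13.7 CPM untreated and 174 ± 21.9 CPM with rDKK3 (SD, n = 3 lines). The log2 fold change over the lines was -0.12 (95% interval -0.46 to 0.22), with an adjusted p of 0.806 in edgeR, and it turned to 0.017 without line B. By line, the log2 ratio was 0.10 (95% interval from the counts 0.02 to 0.18) in line A, -0.38 (-0.45 to -0.31) in line B and -0.09 (-0.16 to -0.02) in line C.

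**Figure D4:**
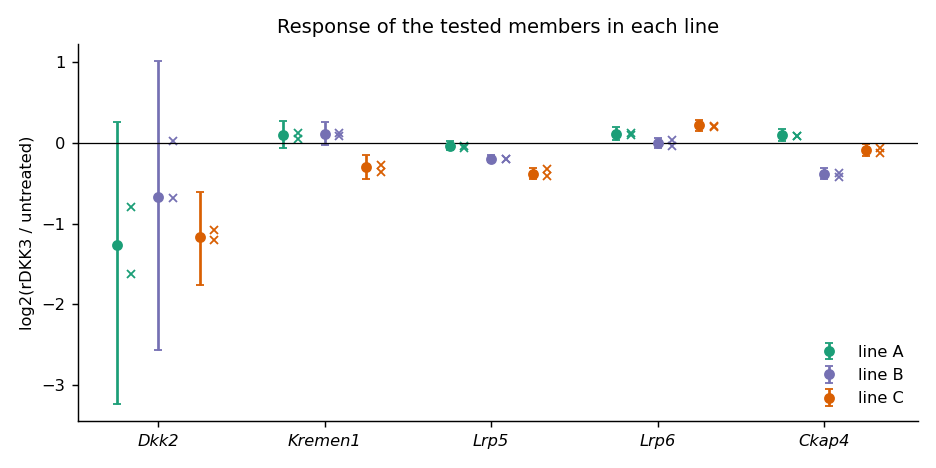
Log2 ratio of rDKK3-treated to untreated samples for the 5 tested members in each line; circles are summed samples with 95% intervals from the counts, and crosses are the 2 library series. Dkk2 lies below 0 in all 3 lines, with wide intervals that exclude 0 in line C alone. Lrp5 lies below 0 in all 3, with an interval that includes 0 in line A. Kremen1 and Ckap4 lie on both sides of 0.

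Together, 0 of the 5 tested members passed edgeR's adjusted threshold of 0.05 between rDKK3-treated and untreated lines (0.00657% of all genes passed), and 1 of 5, Dkk2, had an unadjusted p under 0.05 (8.29% of all genes). Of the 5 log2 fold changes, 4 were below 0, with a median of -0.12 against -0.0063 over all 15214 genes tested. DESeq2 on the same summed samples called 0 of these 5 and 0.73% of all genes, with adjusted p-values of 0.755 for Dkk2 and 0.911 for Lrp5.

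Duct epithelial markers were also lower in sum with rDKK3 in each line. Their summed level (8 genes, among them the keratins Krt7, Krt8, Krt18 and Krt19) was 5700 CPM (5699.7) untreated and 4110 CPM (4109.5) treated in line A, 9788 and 8086 CPM in line B, and 5336 and 4249 CPM in line C, and 5 of its 7 tested genes had a log2 fold change below 0. The other tested genes were Sox9, at 0.34 and above 0 in each line, and Cdh1, at 0.16. None of the 7 passed the edgeR threshold, with an adjusted p of 0.597 for Krt7, Krt8, Krt19 and Sox9 alike. These 4 of 7 had an unadjusted p under 0.05 in edgeR, against 8.29% of all genes. In the 12-library fit Krt7, Krt8, Krt18 and Krt19 were called lower and Sox9 higher (adjusted p of 0.00268 in edgeR for Sox9), where 18.1% of all genes were called. Of the 9 fibroblast markers, Fap was at 0 and the sum lay between 5.75 and 139 CPM, highest in treated line A, where Acta2 made up 127 CPM. The sum of 7 acinar markers, of which Ptf1a, Cpa1, Amy2a5 and Pnlip were at 0, lay between 0.986 and 12.3 CPM, that of 7 leukocyte markers, with Adgre1 and Cd3e at 0, between 9.57 and 46.0 CPM, and that of 5 endothelial markers between 0.877 and 17.5 CPM. The leukocyte sum was higher with rDKK3 in each line. Epcam, a defining epithelial marker, lay at or below 2.05 CPM in each sample, while Krt8 lay at or above 816 CPM. Fewer cells of a type and less RNA per cell cannot be told apart in these bulk samples, and the part of these markers in the members' values was not tested.

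Between the lines, Lrp5 passed the edgeR test of any difference (adjusted p of 0.0188), where 32.2% of all genes did. Dkk2 entered that test through line C, the line where it is high, and did not pass the filter on low counts without it, so that its difference between lines is given as a description. In the fit without a filter, where 22.7% of 29823 genes were called between lines, its adjusted p was 6.29e-05 (edgeR). Line C stood apart in both members, on opposite sides. Dkk2 was higher in line C than in line A by a log2 difference of 2.61 ± 0.38 (SE) and than in line B by 3.51 ± 0.40. Lrp5 was lower in line C than in line A by a log2 difference of -0.80 ± 0.15 (SE) and than in line B by -0.97 ± 0.15.

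Lrp5 passed edgeR's pairwise test for line C against line A (adjusted p of 0.0265, with 16.3% of all genes called) and for line C against line B (0.0162, with 20.3% called). Between lines A and B, where 25.2% of genes were called, it did not pass, with an adjusted p of 0.457 in edgeR. Without line B the call for Lrp5 was lost (adjusted p of 0.0893, edgeR). Kremen1, Lrp6 and Ckap4 did not pass between the lines, with adjusted p-values of 0.393, 0.236 and 0.632 in edgeR. Line C thus combined the most Dkk1 and Dkk2 RNA with the least Lrp5 RNA, in both conditions for Dkk2 and Lrp5.

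Per kilobase of transcript, which allows genes to be compared, the untreated means were 67.2 ± 19.6 CPM per kb for Lrp5, 59.6 ± 4.31 for Ckap4, 18.1 ± 1.79 for Lrp6, 8.17 ± 1.52 for Kremen1, 0.635 ± 0.784 for Dkk2 and 0.304 ± 0.452 for Dkk1 (SD, n = 3 lines). Lrp5, from 46.0 to 84.5 CPM per kb, overlapped Ckap4, from 54.8 to 63.0, and Dkk2 overlapped Dkk1. Lrp6, from 15.99 to 19.1, lay below both of the former and above Kremen1, from 7.19 to 9.92, in every untreated sample. Lrp5, Ckap4, Lrp6 and Kremen1 thus lay above the ligands at the level of RNA, whereas Kremen2, at 0.0154 CPM per kb untreated, did not.

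Genes whose log2 CPM followed Dkk2 most closely over the 6 summed samples were Ube2z, a ubiquitin-conjugating enzyme (Pearson r = 0.996), Plcd1, a phospholipase C (0.993), and Etv1, an ETS transcription factor (0.989). Plcd1 stood at 42.8 and 27.5 CPM in untreated and treated line C and at 6.15 to 10.8 CPM in lines A and B. Etv1 stood at 34.9 and 26.9 CPM in line C and at 7.12 to 12.7 CPM elsewhere. For Lrp5 they were Dok4, an adaptor protein (0.998), Rnf208, a RING finger protein (0.996), and Ly6e, a GPI-anchored surface protein (0.996), with Ly6e at 195 and 104 CPM in line C against 733 to 1094 CPM in lines A and B. The 6 points are 3 pairs from 3 lines, so many genes follow any line pattern: of 12171 protein-coding genes, 297 had r above 0.9 with Dkk2 and 609 with Lrp5.

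The genes that work with these members were read as lists. Of 15 Wnt receptors, 12 were tested, 0 passed the edgeR threshold between conditions and 2 had an unadjusted p under 0.05 (8.29% of all genes), with a median log2 fold change of -0.08. Those were the Frizzled receptors Fzd2, at 62.3 CPM untreated and 50.6 CPM treated in line A, 17.4 and 14.8 CPM in line B and 39.8 and 22.8 CPM in line C (log2 fold change -0.44, adjusted p of 0.597 in edgeR), and Fzd5 (-0.33, adjusted p of 0.597). Fzd3 (0.58) and Fzd4 (0.36) had the largest values above 0 among those with the same direction in each line and an average log2 CPM of at least 1. In the 12-library fit 4 of the 12 were called lower (18.1% of all genes called in either direction), and 8 of 12 differed between lines (32.2% of all genes). The 8 include Fzd9, at 3.11 and 3.12 CPM in line C and from 0 to 0.682 CPM in lines A and B. Because it holds a gene that is high in a single line, like Dkk2, this line count is given as a description.

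Of 15 genes of receptor turnover and maturation, 12 had counts and 11 were tested, 0 of which passed between conditions in edgeR, also at an unadjusted p under 0.05, with 8 log2 fold changes below 0 and a median of -0.21. They include Mesd, the chaperone that LRP5 and LRP6 need to reach the cell surface, at 64.8 and 61.9 CPM in line A, 57.4 and 52.5 CPM in line B and 87.8 and 60.7 CPM in line C (log2 fold change -0.24, adjusted p of 0.661 in edgeR). Mesd was lower with rDKK3 in each line, with the widest gap in line C. Rnf43, a ubiquitin ligase that removes Frizzled receptors and is itself a Wnt target, had a log2 fold change of -0.70 (adjusted p of 0.664 in edgeR). It was at 6.44 and 3.80 CPM in line A, 1.16 and 0.864 CPM in line B, and at or below 0.0856 CPM in line C, which is its floor or less. In the 12-library fit 3 of the 11 were called lower, against 18.1% of all genes called either way, and 8 of 11 differed between lines, against 32.2%. The 8 include Rnf43 and Lgr5, both highest in line A in each condition. Because these genes are high mainly in a single line, like Dkk2, this line count is given as a description.

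Most other secreted Wnt antagonists were at or near 0. Of 12 listed, 3 had no count and 3 were tested: Igfbp4, which binds IGFs and can bind LRP6, Notum, which removes the lipid from Wnt proteins, and Apcdd1, a membrane-bound inhibitor. Their log2 fold changes were -0.17, -0.06 and -0.42, 0 of 3 passed between conditions at either an adjusted or an unadjusted p under 0.05 in edgeR, and all 3 differed between lines (32.2% of all genes). Igfbp4 was abundant, between 339 and 1818 CPM over the 6 samples, and Notum lay between 1.7 and 122 CPM.

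In the relay below LRP5 and LRP6, the 15 listed genes were all tested, 0 passed between conditions in edgeR and 1 had an unadjusted p under 0.05 (8.29% of all genes), with a median log2 fold change of 0.09. That was Dvl3, a Dishevelled scaffold, at 63.0 and 81.9 CPM in line A, 46.7 and 59.4 CPM in line B and 59.9 and 66.1 CPM in line C (log2 fold change 0.29, adjusted p of 0.601 in edgeR). Apc, the scaffold of the beta-catenin destruction complex, had 0.30, and the casein kinases Csnk1g2 and Csnk1a1 had -0.21 and -0.09. Between lines 1 of 15 was called, against 32.2% of all genes, and in the 12-library fit 4 genes were called higher and 1 lower, against 18.1% of all genes called.

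Wnt feedback and target genes, which report on canonical signaling, gave 0 calls among 11 tested genes in edgeR, also at an unadjusted p under 0.05, with 8 of 11 log2 fold changes below 0 and a median of -0.11. Axin2, a common readout of canonical signaling (named after its values were seen), had a log2 fold change of -0.69 ± 0.54 (SE, adjusted p of 0.738 in edgeR). It was at 8.80 and 6.53 CPM in line A, 3.48 and 5.02 CPM in line B and 15.7 and 3.37 CPM in line C, so that line B lay on the other side of no change. Other genes of the list lay the other way in line C (also named after their values were seen): Myc was at 114 CPM untreated and 239 CPM treated there, with a log2 fold change of 0.08 over the 3 lines, and Ccnd1 at 1103 and 1759 CPM, with 0.04. Between lines 7 of 11 differed (32.2% of all genes), and 1, Lgr5, was called lower in the 12-library fit (18.1% of all genes called). The 7 include Lgr5 and Sp5, the latter at 4.27 and 16.1 CPM in line A and at or below 1.80 CPM elsewhere. Both are high mainly in a single line, so that this line count is given as a description. Lgr5, Znrf3, Rnf43, Notum and Apcdd1 also stand in the turnover or antagonist lists, so that 5 of these 7 line calls and the Lgr5 call were already counted there.

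The list from CKAP4 to PI3K and AKT had 10 tested genes, of which 0 passed between conditions in edgeR and 1 had an unadjusted p under 0.05 (8.29% of all genes), with a median of -0.03. This was Zdhhc2, the palmitoyl transferase that acts on CKAP4, at 20.4 and 14.1 CPM in line A, 37.97 and 25.4 CPM in line B and 51.0 and 41.0 CPM in line C. It was lower with rDKK3 in all 3 lines (log2 fold change -0.47 ± 0.13 (SE), adjusted p of 0.597 in edgeR, and 0.00142 in the 12-library fit), although treated line C lay above untreated lines A and B. In the 12-library fit Zdhhc2 alone was called in this list, against 18.1% of all genes. In this list 6 of 10 differed between lines, against 32.2% of all genes.

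**Figure D5:**
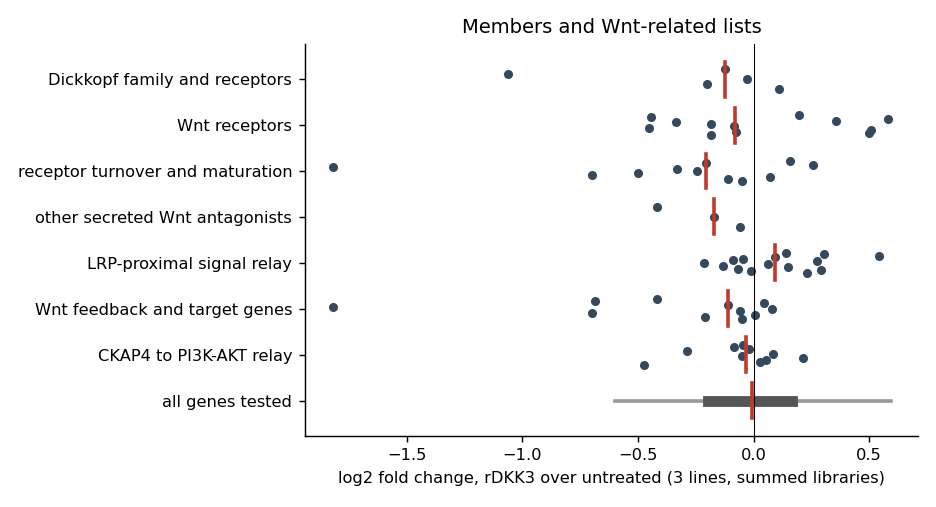
Log2 fold change with rDKK3 over the 3 lines for each tested gene of the members and of 6 related lists (dots), with the median in red; the lowest row shows all 15214 genes tested (thin bar, 5th to 95th percentile, -0.60 to 0.59; thick bar, 25th to 75th percentile). Dkk2, at -1.06, lies outside that range, and the other 4 tested members lie within it.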

How the data were processed

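Total RNA of 3 DDKC lines, untreated or treated with rDKK3, was sequenced in 12 directional libraries. The authors aligned reads to GRCm39 with STAR (2.7.9a in the submitters' processing notes), counted them by strand on GENCODE genes and deposited raw counts per gene, without normalization. The table had 57278 rows, of which 92 spike-in rows without a gene name held 0 counts and were left out, and 0 value columns were left unmatched.

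The 2 libraries of a line and condition were compared over 12979 genes averaging 20 counts or more. Their mean deviance was 0.764 per degree of freedom with a shift between library number series, 6.39 without it, and 25.1 when conditions were taken as repeats. They were summed. Samples were paired by the cell line named in the labels: deviations from the condition means correlated at 0.786 to 0.865 within a line and at -0.494 to -0.291 between lines. Tests used edgeR 4.0.16 in R 4.3.3 (quasi-likelihood, TMM, filterByExpr, line and treatment in the model, Benjamini-Hochberg over all genes tested, threshold 0.05), and log2 CPM a prior count of 2. Standard errors came from the fold change and the F statistic. The fit was tested on simulated data, and the outcome is not reported here. Alternatives were DESeq2 1.42.0, RLE scaling, no filter, 12 libraries, single series, thinning to equal depth, leaving out a line and no line block.

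Transcript lengths and the Dkk3 exons came from a later GENCODE release of the same assembly than the authors used, and gene coordinates from the deposited table. Named were all members, from each list up to 2 genes with the highest and 2 with the lowest log2 fold change (average log2 CPM of at least 1, same direction in all 3 lines), 3 genes most alike to the 2 members of widest range, and protein-coding genes within 500 kb of Dkk3. Igfbp4, Notum, Apcdd1, Axin2, Myc, Ccnd1, Lgr5, Znrf3, Fzd9, Sp5 and Lcn2, and the marker genes, were named outside this rule, after their values were seen. One allele of the lines and one gene list are not reported here. The members and lists were chosen with earlier results of these data known. The paper's model formula is not given in the sources used here.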

Additional observations from a re-analysis of the deposited data

Results flagged for a closer look

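Kremen1 and Ckap4 stood out because libraries of different lines moved in opposite directions with rDKK3 in both library series. For Kremen1 the log2 ratio of line A exceeded that of line C by 0.40, and that of line B exceeded that of line C by 0.41. For Ckap4 it was higher in line A than in line B by 0.48 and than in line C by 0.19. With 1 summed sample per line and condition these differences between lines were not tested.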

How the results depend on the processing

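Treating the 12 libraries as separate samples moved the numbers of calls most. It raised the genes called with rDKK3 from 1 to 2744, and to 3124 with the library number series as a covariate, and those called between lines from 4899 to 11790 and 12211. Under these fits, in the same order, Dkk1 (-4.31 and -4.30), Dkk2 (-1.06 and -1.09) and Lrp5 (-0.21 and -0.21) passed with rDKK3. Kremen1 and Lrp6 passed the test of any difference between the lines under them, with log2 differences of line C from the others of 0.27 and 0.27 for Kremen1 and 0.22 and 0.22 for Lrp6. Without the filter 90 genes were called with rDKK3, and by DESeq2 96. With no replicate block, that is without the line, 0 genes were called by edgeR and 106 had an unadjusted p under 0.05, but no call of a member changed. Leaving out a line gave between 0 and 2 genes called with rDKK3 (0 without line A, with 1819 at an unadjusted p under 0.05, and 0 without line B, with 648) and between 1502 and 5173 called between lines, lowest without line B. Log2 fold changes then ranged from -0.089 to 0.11 for Kremen1 and from -0.23 to 0.017 for Ckap4, and the line C difference of Lrp5 from -0.96 to -0.81. Thinned to equal depth, Kremen1 was at 0.0019 in place of -0.03. The cause of these changes was not tested. Dkk2 could not be fitted without line C or in the lower series alone, since it did not pass the filter there. RLE scaling shifted log2 fold changes by a median of 0.0079 and changed no call of a member. Depth limits the rare members: Dkk1, Dkk3, Dkk4, Dkkl1 and Kremen2 lay at or near the floor in most libraries.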
